A study of Mus musculus with 22 samples.

Results

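The difference between Mmp13-/- and wild type (WT) granulation tissue that was shared by all harvest days was measured as 1 genotype term over all 22 of the 22 arrays of the series, 11 of Mmp13-/- mice and 11 of WT mice. Mice labelled as 5 to 8 weeks old, with a slightly higher lower age in the study's methods, received a viscose cellulose sponge below the skin of the back, and the granulation tissue that filled it was taken at 7 d, 14 d or 21 d, with 3 mice of each genotype at 7 d and 4 of each at 14 d and 21 d. The mice of both genotypes were labelled with a mixed C57BL/6 x 129 background. The Mmp13-/- line carried its targeted allele in every cell and had been crossed back to C57BL6 for at least 7 generations, and the WT mice were bred from heterozygotes of that line. RNA from the ends of each sponge was read on Affymetrix arrays in 2 hybridization series with different labelling kits and RNA input, all 7 d arrays and 3 arrays of each genotype at 14 d in series 1, and 1 array of each genotype at 14 d and all 21 d arrays in series 2. Each of these 4 combinations of day and series was given its own block term, so that a genotype was compared only with arrays of the same day and series. A probe set is a group of probes read together as 1 value, in most cases annotated to 1 gene. Its deposited values are on a log2 scale, on which a difference of 1 is a 2-fold change. All differences below are Mmp13-/- minus WT.

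MMP-13, also called collagenase-3, is a secreted matrix metalloproteinase that cleaves fibrillar collagens and other matrix proteins in wounds, bone and cartilage. Granulation tissue is the temporary tissue of a healing wound, made of fibroblasts and myofibroblasts that lay down matrix, of macrophages and of new vessels. Its collagen fibrils are spaced by small leucine-rich proteoglycans such as lumican, and matrix metalloproteinases work with growth factors, with their receptors and with inhibitors such as the TIMPs. A knockout made in 129-derived embryonic stem cells keeps some 129 DNA linked to the targeted allele even after many backcrosses.

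Some markers of the cells of granulation tissue were high. The mean log2 level over all arrays was 11.97 for *Col1a1*, a collagen chain made by fibroblasts, and 11.25 for *Acta2* of myofibroblasts. It was 11.90 for *Csf1r* and 11.68 for *Cd68* of macrophages, and 3.79 for the basal keratinocyte keratin *Krt14*. Whole marker lists had means of 10.32 to 10.72 on WT and 9.98 to 10.66 on Mmp13-/- arrays for fibroblasts. They were 9.58 to 10.14 and 9.6 to 10.38 for macrophages, and 6.1 to 7.99 and 6.77 to 7.86 for myofibroblasts and smooth muscle. The endothelial list had 5.75 to 7.79 and 6.6 to 7.23, and the keratinocyte list 3.75 to 5.09 and 3.56 to 3.9. RNA of skeletal muscle was also present and uneven, with a mean over 14 muscle markers of 5.69 to 10.05 on WT arrays and 6.31 to 9.86 on Mmp13-/- arrays, and with *Acta1*, skeletal actin, between 7.93 and 12.33. None of these 14 markers had an unadjusted p under 0.05, and the part of muscle RNA in the results was not tested. Arrays of the same group correlated at 0.977 to 0.996, and array medians ran from 4.16 to 4.27. The 3 arrays lying farthest out on the first principal components after removal of the block means were WT 7 d replicate 1, WT 21 d replicate 3 and Mmp13-/- 7 d replicate 3. Without them 9 probe sets were called in place of the number below, 7 of them among those given below, and this choice was made after the data had been seen.

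Of 45037 probe sets tested, 20 (0.0444%) passed an adjusted p under 0.05 in limma, 12 higher (0.0266%) and 8 lower (0.0178%) in Mmp13-/- tissue. All 20 had 1 sign at all 3 days, as did 12635 of all probe sets (28.1%). The 20 were called on these same arrays, which favours a shared sign, so this is no separate support. An unadjusted p under 0.05 was reached by 3308 probe sets (7.35%), 1551 of them higher (3.44%) and 1757 lower (3.9%). The 20 probe sets belonged to 13 named genes and included 2 without a name in the annotation. Series 1 and series 2 are parts of the arrays on which the 20 were called. Within each series alone all 20 kept their sign, and 9 and 5 of them were called. Lower were *Mmp13*, *Casp4*, *Pdgfd*, *Lum*, *Stard4*, *Nnmt*, *Npdc1* and *Sulf2*, and higher were *Cadm1*, *Gpt2*, *Met*, *Lpcat2* and *Ubash3b*. At 7 d the ranges of both genotypes stood apart for 17 of these probe sets, at 14 d for 12 and at 21 d for 12. The 20 were called on these same arrays, which also favours such separation. The share of all probe sets was not counted for single days. Ranges of 3 arrays also stand apart more easily than ranges of 4, so these counts cannot be compared between days. The ranges stood apart at all 3 days for 8 probe sets of the whole array (0.0178%), 4 higher (0.00888%) and 4 lower (0.00888%), and 5 of these were among the 20, for *Mmp13*, *Casp4*, *Gpt2*, *Met* and *Lpcat2*.

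**Figure D1:**
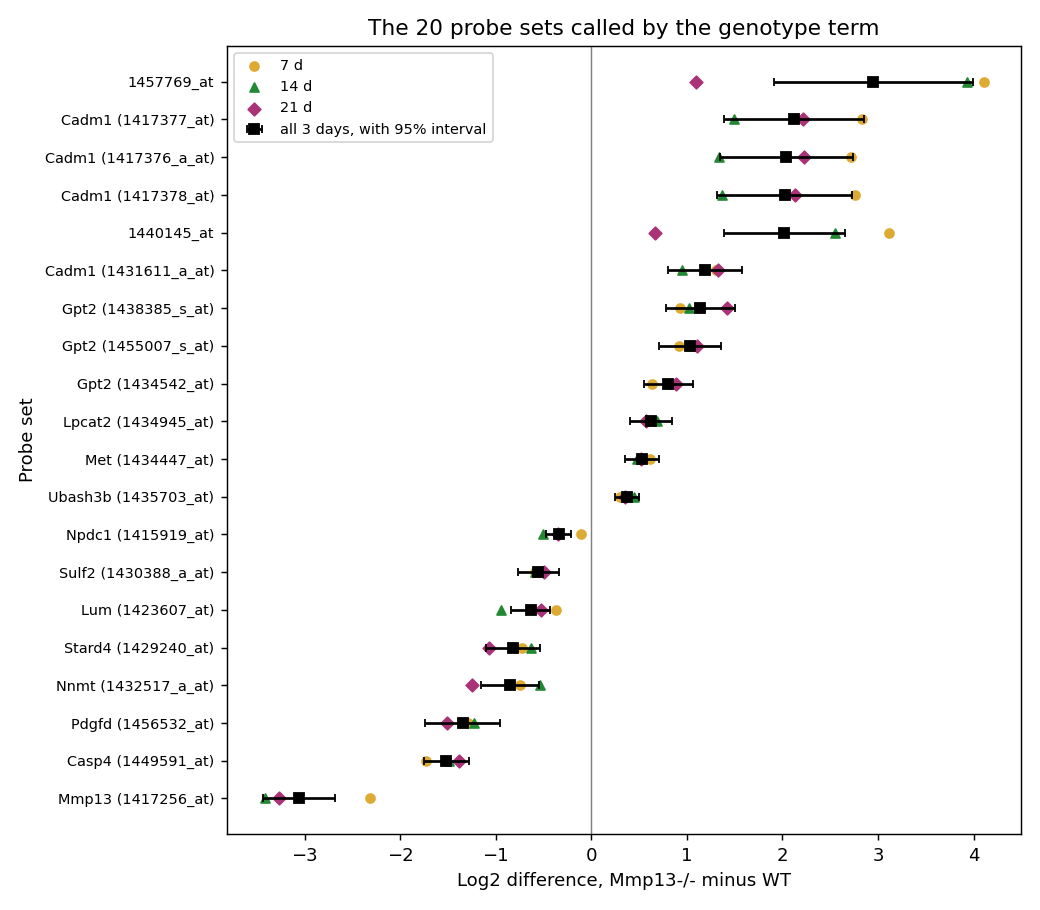
Log2 difference (x axis, Mmp13-/- minus WT) of the 20 called probe sets (y axis), with the genotype term over all 3 days as squares with a 95% interval and the plain difference of means at each day as coloured points. All day points of a probe set lie on the same side of 0, and the terms run from -3.06 for *Mmp13* to 2.95 for 1457769_at.

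The targeted gene, *Mmp13*, was 8.33-fold lower. WT arrays read 11.09, 10.72 and 10.26 at 7 d, 11.87, 11.58, 11.68 and 11.74 at 14 d, and 11.39, 10.72, 10.55 and 12.02 at 21 d, and Mmp13-/- arrays read 8.63, 8.61 and 7.87, then 8.33, 7.91, 8.51 and 8.48, then 7.72, 8.22, 8.07 and 7.62. No Mmp13-/- array reached the lowest WT array. The genotype term was -3.06 (SE 0.18, adjusted p = 2.46e-09 in limma), and the exact permutation test within blocks gave p = 3.57e-05, the smallest its 56000 arrangements allow. Whether the probe set lies in the part of the gene removed by targeting is not given in the sources used here, so the level that remained on the Mmp13-/- arrays has no known transcript behind it.

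*Casp4*, which encodes the inflammatory caspase that responds to bacterial lipopolysaccharide inside cells, lies 12 genes before *Mmp13* in the gene order of the chromosome, and *Pdgfd*, which encodes a growth factor that binds PDGF receptor beta, lies 7 genes before it. The 250 bases before the start of these 3 genes are shown because they are the called genes nearest to each other on a chromosome and all 3 were lower. They come from RefSeq on GRCm38.p6, all on the plus strand, at chr9:7272264-7272513 for *Mmp13*, chr9:5308599-5308848 for *Casp4* (the first of 2 entries) and chr9:6168236-6168485 for *Pdgfd*. Capitals mark matches on either strand to the letters TGANTCA of an AP-1 site, TATAAA of a TATA box and the ISRE consensus, an interferon-stimulated response element.
Mmp13: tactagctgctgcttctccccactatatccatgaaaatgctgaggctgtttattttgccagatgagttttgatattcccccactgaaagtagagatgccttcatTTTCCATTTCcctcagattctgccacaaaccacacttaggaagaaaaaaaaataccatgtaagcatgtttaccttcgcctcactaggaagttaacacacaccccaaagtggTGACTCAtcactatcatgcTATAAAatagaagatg
Casp4: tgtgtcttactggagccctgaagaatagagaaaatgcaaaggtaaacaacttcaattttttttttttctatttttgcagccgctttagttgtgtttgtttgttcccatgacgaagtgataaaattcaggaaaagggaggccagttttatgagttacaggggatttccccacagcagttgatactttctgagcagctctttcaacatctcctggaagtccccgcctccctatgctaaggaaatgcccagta
Pdgfd: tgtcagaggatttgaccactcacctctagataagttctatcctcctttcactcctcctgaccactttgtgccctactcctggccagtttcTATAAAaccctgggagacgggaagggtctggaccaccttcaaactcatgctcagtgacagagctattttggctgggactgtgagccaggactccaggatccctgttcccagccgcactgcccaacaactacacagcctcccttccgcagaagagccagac
The *Mmp13* window held an AP-1 match 35 to 29 bases before the start, a TATA box match 16 to 11 bases before it and a match to the response element, on the other strand, 146 to 137 bases before it. The *Pdgfd* window held a TATA box match 160 to 155 bases before the start, and the *Casp4* window held none of these letters. Of 32536 mouse promoters of this length, 6.73% held the AP-1 letters, 12.3% the TATA box letters and 2.98% those of the response element, so none of these matches is peculiar to the 3 genes.

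*Casp4* read 8.48, 8.42 and 8.52 on the WT arrays at 7 d, 7.87, 7.61, 7.44 and 7.44 at 14 d, and 6.86, 7.02, 6.94 and 7.33 at 21 d. On the Mmp13-/- arrays it read 6.58, 6.81 and 6.83, then 6.21, 5.95, 5.58 and 6.67, then 5.24, 5.69, 5.51 and 6.17. The levels were lower at later days in both genotypes, and at each day all Mmp13-/- arrays were below all WT arrays. The term was -1.52 (SE 0.113, adjusted p = 1.34e-07 in limma), a 2.86-fold lower level. It was -1.73 in series 1 alone and -1.26 in series 2 alone with an adjusted p of 0.0571 there.

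*Pdgfd* had a WT range of 4.94 to 6.91 with a median of 5.72 and a Mmp13-/- range of 3.75 to 4.97 with a median of 4.33. Only the lowest WT arrays, at 4.94 and 4.97, reached the level of the highest Mmp13-/- array. The term was -1.35 (SE 0.187, adjusted p = 0.00542 in limma), with -1.29 at 7 d, -1.22 at 14 d and -1.51 at 21 d. The other probe sets of *Pdgfd* differed by -0.55 and -0.08 and did not pass the test.

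The remaining measured genes next to *Mmp13* did not pass. *Mmp12*, which encodes macrophage elastase and lies within 10 genes of *Mmp13*, differed by 0.16 (unadjusted p = 0.0194 in limma). The brightest probe sets of the 9 others measured within that distance differed by -0.50 to 0.03, with a smallest unadjusted p of 0.0731 in limma. Of the 4 probe sets of *Dcun1d5*, which is among these 9, 1 that was not the brightest had an unadjusted p under 0.05. The caspase genes beside *Casp4* differed by less than it did, with -0.23 for *Casp1*, whose product processes interleukin-1 beta, and -0.17 for *Casp12*. Probes of the array were designed on reference sequence, and the arrays give no genotype of the DNA around the targeted allele.

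**Figure D2:**
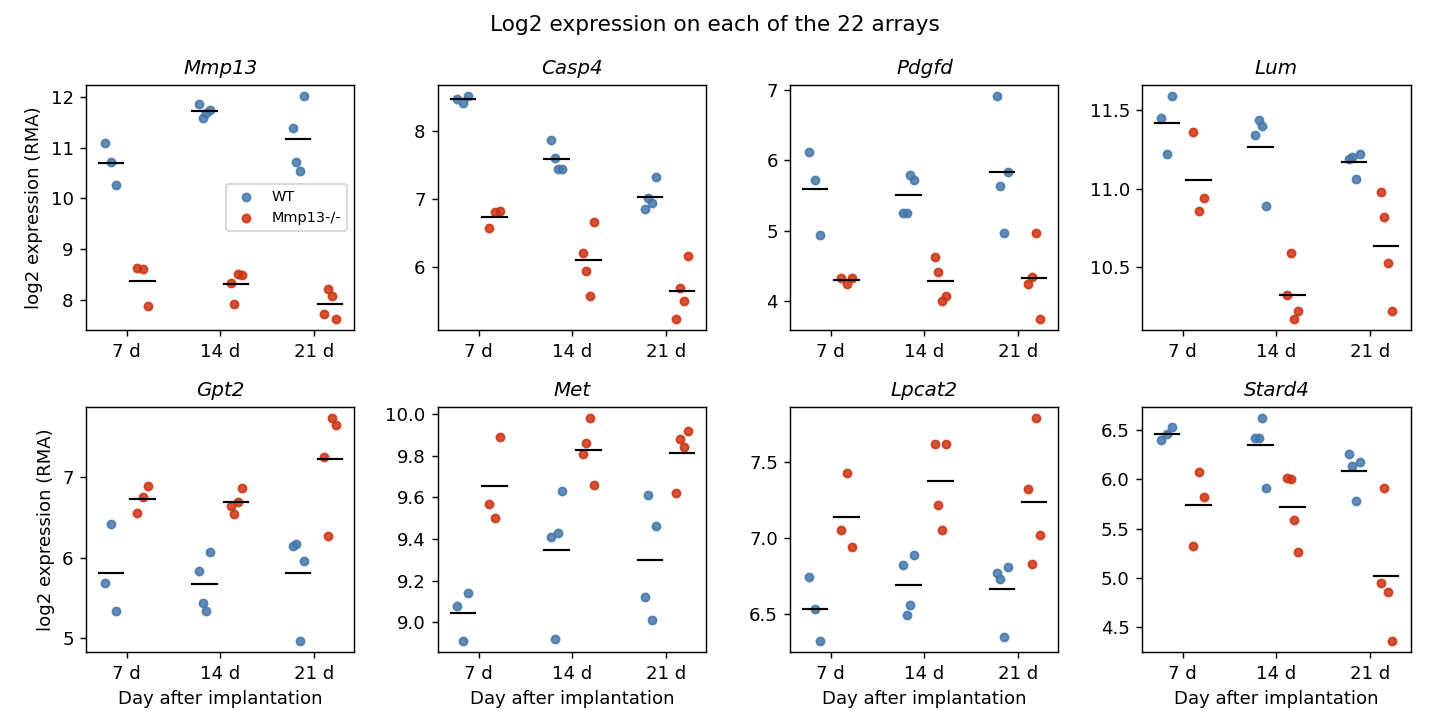
Log2 expression (y axis) on each of the 22 arrays at each day after implantation (x axis) for *Mmp13*, *Casp4*, *Pdgfd*, *Lum*, *Gpt2*, *Met*, *Lpcat2* and *Stard4*, with WT in blue, Mmp13-/- in red and the group mean as a black line. For *Mmp13*, *Casp4*, *Gpt2*, *Met* and *Lpcat2* the points of both genotypes do not overlap at any day.

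Farther along the same chromosome *Cadm1* was higher and *Nnmt* was lower. *Cadm1*, which encodes an adhesion molecule of the immunoglobulin superfamily, lies 843 genes after *Mmp13*, and all 4 of its probe sets were called, with terms from 1.19 to 2.12. The brightest of them read 5.30, 4.87 and 7.48 on WT arrays at 7 d, 8.88, 5.69, 8.75 and 6.51 at 14 d, and 7.50, 6.70, 7.31 and 6.70 at 21 d. On Mmp13-/- arrays it read 8.60, 8.70 and 8.85, then 8.55, 9.14, 8.82 and 9.31, then 8.62, 9.71, 9.67 and 9.05. The Mmp13-/- arrays lay in a narrow band, and WT replicates 1 and 3 of 14 d lay inside that band while all other WT arrays lay below it. The term was 2.12 (SE 0.353, adjusted p = 0.0156 in limma), a 4.35-fold higher level, and it was 1.95 in series 1 and 2.33 in series 2.

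*Nnmt* encodes the enzyme that methylates nicotinamide, and 16 genes lie between it and *Cadm1*. WT arrays read 8.76, 8.69 and 8.01 at 7 d, 7.16, 8.33, 7.22 and 8.61 at 14 d, and 8.59, 8.35, 8.57 and 8.64 at 21 d. Mmp13-/- arrays read 7.75, 7.68 and 7.79, then 7.49, 6.80, 7.39 and 7.48, then 7.50, 7.13, 7.18 and 7.35. As for *Cadm1*, the WT arrays that overlapped the Mmp13-/- arrays were replicates 1 and 3 of 14 d. The term was -0.85 (SE 0.146, adjusted p = 0.0187 in limma), and the call was kept in 18 of the 22 fits that left out 1 array. It was lost without WT 7 d replicate 1, WT 14 d replicate 4, or Mmp13-/- 14 d replicate 2 or 4, with a highest adjusted p of 0.0546.

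*Ubash3b*, which encodes a phosphatase that dampens signalling from antigen receptors, lies 669 genes after *Mmp13*. Its called probe set had a term of 0.37 (SE 0.059, adjusted p = 0.0104 in limma) and its other probe sets differed by -0.16 and -0.04, so the gene had no single direction. Differences of single probe sets of a gene can lie in the transcript or in bases under the probes, and which applies here was not tested.

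Read by the brightest probe set of each gene, 10 of 18193 genes (0.055%) were called. With all probe sets, 6 of the 13 called genes were on the chromosome of *Mmp13*, which holds 1006 of the measured genes (5.53%). Again by the brightest probe set, 8.31% of all genes had an unadjusted p under 0.05. The share was 18.2% of 11 genes within 10 genes of *Mmp13*, 23.1% of 26 genes within 25, 22.2% of 36 genes within 50 (4 higher and 4 lower, and 5 in all without the 14 d arrays), 10.6% of 969 genes farther off on the same chromosome and 8.17% of 17030 genes on the other chromosomes. One sign at all 3 days was found for 41.7% of the genes within 50 and for 28.4% of all genes. Among 20 chromosomes the share ran from 6.55% to 11.3%, with the chromosome of *Mmp13* second at 11.1%. Without WT 14 d replicate 1 the called genes on this chromosome numbered 11, and without the 3 outlying arrays 3. Effects of 129 DNA linked to the targeted allele and effects of the loss of MMP-13 cannot be told apart in this design for any of these genes.

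**Figure D3:**
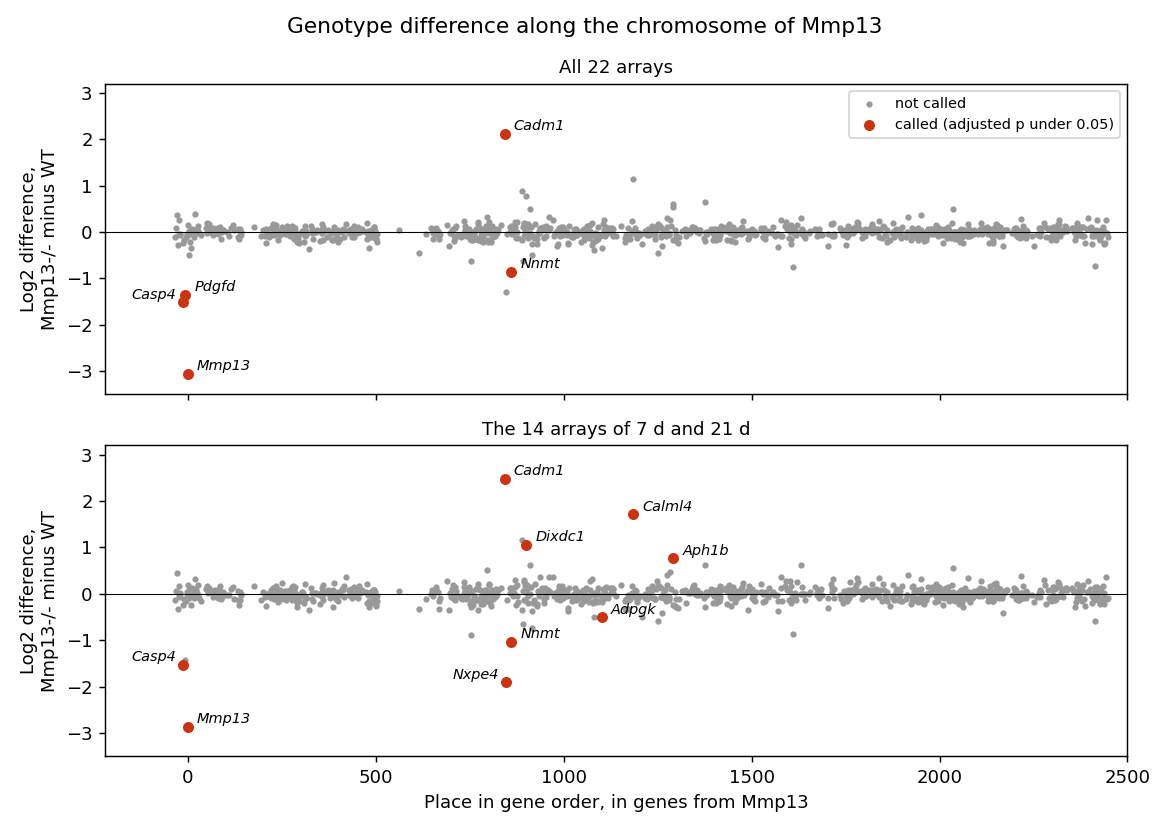
Log2 difference (y axis, Mmp13-/- minus WT) of the brightest probe set of each measured gene against its place in the gene order of the chromosome (x axis, in genes from *Mmp13*), over all 22 arrays (upper panel) and over the 14 arrays of 7 d and 21 d (lower panel), with called genes in red. Over all arrays *Casp4*, *Pdgfd* and *Mmp13* are called at one end and *Cadm1* and *Nnmt* farther along, and *Ubash3b*, *Atm* and *Pclaf* are not red because another probe set of each is brighter.

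The day structure of this chromosome came out when each day was left out in turn. Without the 14 d arrays, 15 probe sets were called, 7 higher and 8 lower, and all 11 named genes among them lay on the chromosome of *Mmp13*. These were *Casp4*, *Mmp13*, *Cadm1*, *Nxpe4*, *Nnmt*, *Dixdc1*, *Atm*, *Adpgk*, *Calml4*, *Pclaf* and *Aph1b*, and those not called over all arrays were chosen for naming after their values were seen. In the left-out 14 d arrays all 15 had the same sign, against 53.6% of all probe sets. These are not 15 separate checks, since all 4 probe sets of *Cadm1* are among them and the named genes share a chromosome. The differences at 14 d ran from -0.047 for *Adpgk*, the smallest in size, to -3.41 for *Mmp13*. Without 7 d, 5 probe sets were called and 4 of them had the same sign at 7 d (52.2% of all), with 2 of 5 named genes on the chromosome. Without 21 d, 21 were called and 16 had the same sign at 21 d (52.7% of all), with 4 of 16 named genes on it.

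The genes added by leaving out 14 d covered a long stretch, from *Nxpe4* at 847 genes after *Mmp13* to *Aph1b*, which encodes a subunit of gamma-secretase, at 1292. *Atm*, which encodes the kinase that responds to DNA breaks, read 6.02, 6.27 and 6.27 on WT arrays at 7 d and 6.45, 6.82, 6.16 and 6.42 at 21 d on the dimmer of its probe sets, and 5.19, 4.76 and 4.75, then 4.2, 4.12, 4.16 and 3.64 on Mmp13-/- arrays. At these days no arrays of the genotypes overlapped. At 14 d the WT arrays read 4.84, 6.25, 5.07 and 6.51 and the Mmp13-/- arrays 5.79, 4.77, 6.10 and 4.77, so that replicates 1 and 3 of each genotype lay near the other genotype. Over all days the term was -1.35 (adjusted p = 0.0802 in limma), and the brighter probe set of *Atm* differed by 0.06.

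The other genes followed this layout in part. *Nxpe4* read 4.91, 6.4, 4.88 and 6.30 on the WT arrays of 14 d and 5.80, 4.88, 6.12 and 4.86 on the Mmp13-/- arrays, and its term over all days was -1.29 (adjusted p = 0.191). *Pclaf*, which encodes a partner of PCNA, read 2.41, 4.49, 2.76 and 5.22 on the former and 4.27, 2.38, 3.82 and 3.14 on the latter, with a term of -1.07 (adjusted p = 0.231) and other probe sets at 0.12 and 0.25. The terms were 0.77 for *Dixdc1*, a member of the Wnt pathway (adjusted p = 0.0802), 1.14 for *Calml4*, a calmodulin-like gene (0.262), 0.55 for *Aph1b* (0.121) and -0.34 for the ADP-dependent glucokinase gene *Adpgk* (0.252), all from limma. The dimmer probe sets of *Dixdc1* differed by 0.10, -0.03 and -0.14. *Aph1b* departed from the layout, since its 14 d arrays read 7.13, 6.30, 7.03 and 6.66 for WT and 6.83, 7.31, 6.99 and 6.69 for Mmp13-/-, so that replicate 4 was the Mmp13-/- array nearest to the WT level.

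Counted over the 11 genes, WT replicates 1 and 3 of 14 d were nearer to the Mmp13-/- mean of the other days for 9 genes each, and WT replicates 2 and 4 for 0. Mmp13-/- replicates 2 and 4 were nearer to that mean for 11 and 10 genes, and Mmp13-/- replicates 1 and 3 for 6 and 5. Beyond *Nnmt* the counts were 6, 0, 6 and 0 of 6 genes for the WT replicates 1 to 4 and 2, 6, 1 and 5 for the Mmp13-/- replicates. For *Mmp13* and *Casp4* every 14 d array was nearer to the mean of its own labelled genotype. These genes were called on the 7 d and 21 d arrays alone. Those not called over all arrays were named after their values at 14 d had been seen, so these values were not free of that choice. The genes lie on 1 chromosome, so the counts are not made of separate observations. Replicates 1, 2 and 3 were all hybridized in series 1. WT replicates 1 and 3 of 14 d also had the highest mean over 23 keratinocyte and epidermis markers, at 4.76 and 5.09 against 3.56 to 4.26 on the other 20 arrays, and the part of this in the result was not tested.

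**Figure D4:**
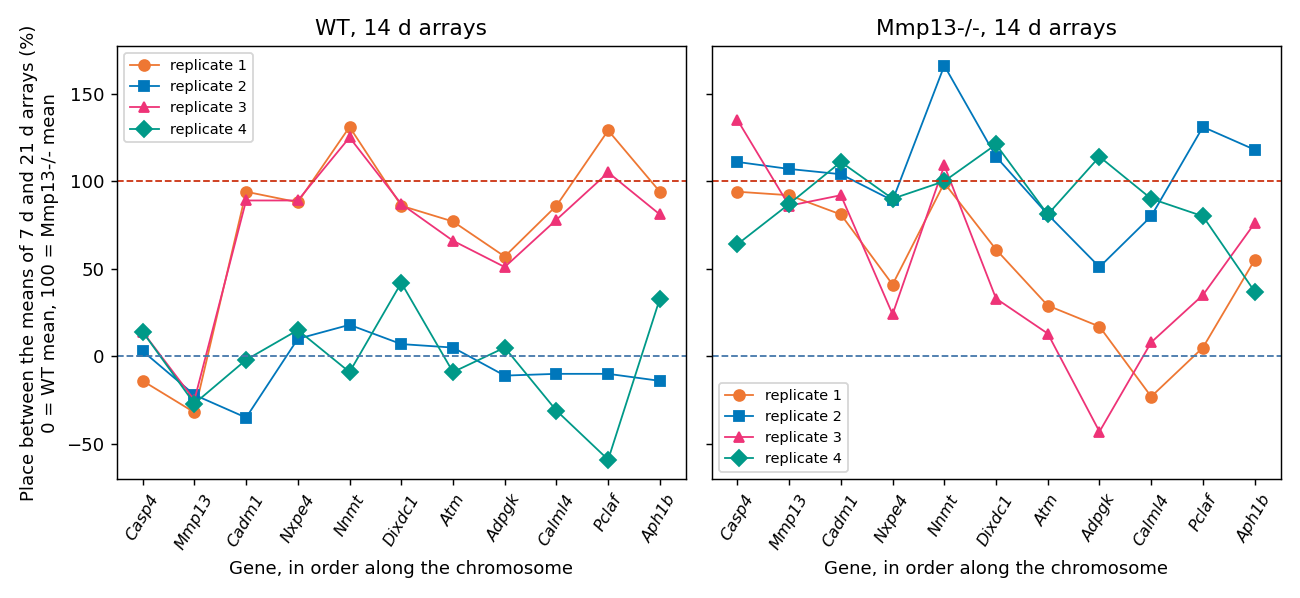
Place of each 14 d array (y axis, in percent, 0 for the mean of the WT arrays and 100 for the mean of the Mmp13-/- arrays of 7 d and 21 d) for the 11 genes in order along the chromosome (x axis), with WT arrays on the left, Mmp13-/- arrays on the right, 1 line per replicate and 1 probe set per gene. From *Cadm1* on, WT replicates 1 and 3 lie between 51 and 131, and for *Adpgk*, *Calml4* and *Pclaf* Mmp13-/- replicates 1 and 3 lie between -43 and 35, while for *Mmp13* and *Casp4* each array lies on the side of its own genotype.

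Among called genes on other chromosomes, those lower in Mmp13-/- tissue included 2 that act in the extracellular matrix. *Lum*, which encodes lumican, read 11.45, 11.22 and 11.59 on WT arrays at 7 d, 11.34, 11.44, 11.4 and 10.89 at 14 d, and 11.19, 11.20, 11.06 and 11.22 at 21 d, against 11.36, 10.86 and 10.94, then 10.32, 10.59, 10.17 and 10.22, then 10.98, 10.82, 10.53 and 10.22 on Mmp13-/- arrays. The ranges overlapped at 7 d and stood apart at 14 d and 21 d. The term was -0.64 (SE 0.1, adjusted p = 0.0104 in limma), a 1.55-fold lower level. *Sulf2*, which encodes an extracellular sulfatase of heparan sulfate, had a term of -0.55 (SE 0.102, adjusted p = 0.045 in limma) on its called probe set and -0.35 and -0.04 on the others. In bulk tissue, fewer cells of a type and less RNA per cell cannot be told apart.

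*Stard4* encodes a carrier of cholesterol between membranes. Its called probe set ran from 5.78 to 6.62 (median 6.4) on WT arrays and from 4.36 to 6.07 (median 5.59) on Mmp13-/- arrays, with a term of -0.81 (SE 0.136, adjusted p = 0.0156 in limma). Another probe set of the gene differed by -0.84 (adjusted p = 0.0638) and the brightest by -0.23. *Npdc1*, named for a role in neural proliferation and differentiation, had a term of -0.34 (SE 0.062, adjusted p = 0.045 in limma). The calls of *Npdc1* and *Sulf2* were the least stable, each made in 6 of the 22 fits that left out 1 array, with adjusted p up to 0.123 and 0.105 in the others.

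Of the genes higher in Mmp13-/- tissue on other chromosomes, *Gpt2*, which encodes the mitochondrial alanine aminotransferase, had 3 of 4 probe sets called. The brightest read 5.68, 6.42 and 5.33 on WT arrays at 7 d, 5.84, 5.44, 5.34 and 6.07 at 14 d, and 6.15, 6.17, 4.96 and 5.96 at 21 d, and 6.56, 6.76 and 6.89, then 6.65, 6.54, 6.70 and 6.87, then 7.26, 6.27, 7.74 and 7.66 on Mmp13-/- arrays. The lowest Mmp13-/- array exceeded the highest WT array at every day. The term was 1.14 (SE 0.175, adjusted p = 0.0104 in limma), a 2.20-fold higher level, with 1.01 in series 1 and 1.30 in series 2. The other probe sets had terms of 1.04, 0.81 and 0.52, the last with an adjusted p of 0.248.

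*Met*, which encodes the receptor of hepatocyte growth factor, ran from 8.91 to 9.63 (median 9.14) on WT arrays and from 9.50 to 9.98 (median 9.84) on Mmp13-/- arrays. The ranges stood apart within each day. The term was 0.53 (SE 0.087, adjusted p = 0.0156 in limma), and the 14 d difference was 0.63 in series 1 and 0.03 between the arrays of series 2. The other probe set of *Met* differed by 0.17. *Lpcat2*, which encodes an acyltransferase of platelet-activating factor synthesis, ran from 6.32 to 6.89 on WT arrays and from 6.83 to 7.79 on Mmp13-/- arrays, with a term of 0.63 (SE 0.104, adjusted p = 0.0156 in limma). Its other probe set went the opposite way, with -0.48 (adjusted p = 0.188).

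The probe set 1457769_at, which has no gene name in the annotation used, split into a low and a high level. WT arrays lay between 2.23 and 2.76 apart from 21 d replicate 3 at 5.14, and Mmp13-/- arrays lay between 5.47 and 6.92 apart from 21 d replicates 1 and 4 at 2.52 and 2.53. All arrays of 7 d and 14 d thus divided by genotype, while 3 of the 8 arrays of 21 d did not. The term was 2.95 (SE 0.502, adjusted p = 0.0183 in limma, and 0.0507 without WT 14 d replicate 2), with 4.14 in series 1 and 1.53 in series 2. The probe set 1440145_at, also unnamed, was at 5.92, 5.15 and 5.92, then 5.46, 5.04, 5.09 and 4.69, then 3.2, 4.83, 4.43 and 2.97 on Mmp13-/- arrays and between 2.29 and 4.16 on WT arrays. Its lowest Mmp13-/- arrays and its highest WT array were the same arrays as for 1457769_at, and its term was 2.02 (SE 0.306, adjusted p = 0.0104 in limma).

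Such levels occurred elsewhere on the arrays. A gap of at least 2 between neighbouring sorted values, with at least 3 arrays on each side, was found for 29 probe sets, of which 18 divided by hybridization series, 3 by 7 d against later days, 0 by genotype and 8 within groups. *Ifi202b*, an interferon-inducible gene, was at the upper level (8.34 to 10.71) on 2 WT and 7 Mmp13-/- arrays and at the lower level (2.71 to 3.51) on the rest, and its term of 3.16 had an adjusted p of 0.503. *Npy*, which encodes neuropeptide Y, was at the upper level on 5 WT and 9 Mmp13-/- arrays (term 2.10, adjusted p = 0.586). *Hal*, which encodes histidine ammonia-lyase and was chosen after its values were seen, was at the upper level on all 11 WT arrays (8.03 to 9.63) and on 6 Mmp13-/- arrays, and its other 5 Mmp13-/- arrays read 4.78, 4.76, 5.06, 5.07 and 5.35. A mean difference of such a gene is set by how many animals of a genotype are at each level.

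The gene lists are described by how many members had an unadjusted p under 0.05, beside the 3.57% of all genes that were higher and the 4.73% that were lower at that threshold. Members not named above as called did not pass the adjusted threshold. Of 31 proteoglycans and other matrix proteins, 12 were lower at that threshold and 0 higher, 27 had a negative difference and the median was -0.216, against -0.004 over all genes. *Aspn* and *Ogn*, small leucine-rich proteoglycans like *Lum*, differed by -0.61 (adjusted p = 0.116) and -0.76 (adjusted p = 0.159), and *Vcan*, which encodes versican, by -0.30 (adjusted p = 0.222). The mean over the list was 8.15 to 8.41 on WT and 8.20 to 8.38 on Mmp13-/- arrays at 7 d, 8.78 to 9.04 and 8.46 to 8.60 at 14 d, and 8.78 to 9.10 and 8.43 to 8.85 at 21 d, so that the genotypes stood apart only at 14 d. Without the 14 d arrays 4 members were lower at the threshold, and the probe sets of the whole array at it, in either direction, numbered 2123 in place of 3308.

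Of 13 fibroblast markers, 5 were lower and 0 higher at the threshold, among them *Lum*, *Dcn* (decorin, -0.22, adjusted p = 0.301) and *Dpt* (dermatopontin, -0.48, adjusted p = 0.23), and *Lum* and *Dcn* are also in the matrix list. The mean over the markers was 10.39 to 10.50 on WT and 10.48 to 10.66 on Mmp13-/- arrays at 7 d, 10.53 to 10.72 and 10.05 to 10.40 at 14 d, and 10.32 to 10.59 and 9.98 to 10.44 at 21 d. The genotypes thus stood apart at 14 d, as for the matrix list. The type I collagen gene *Col1a1* and the fibroblast receptor gene *Pdgfra*, both in the marker list, differed by 0.09 and 0.05. The part of the fibroblast markers in the matrix result was not tested. Of 12 markers of myofibroblasts and smooth muscle, 0 passed in either direction. Of 23 collagens 2 were lower, including *Col14a1* (-0.54, adjusted p = 0.242), and of 19 genes of collagen processing 1 was higher and 3 were lower, including *P3h1*, a collagen prolyl hydroxylase (-0.21, adjusted p = 0.222).

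Among 17 other matrix metalloproteinases 1 was higher and 3 were lower at the threshold. *Mmp2*, which encodes gelatinase A, differed by -0.47 (adjusted p = 0.177), *Mmp3*, stromelysin-1, by -0.50 (adjusted p = 0.72) and *Mmp9*, gelatinase B, by -0.45 (adjusted p = 0.746), all without passing. *Mmp3* had no common sign, with 0.767 at 7 d, -1.525 at 14 d and -0.43 at 21 d, and it was at 0.08 when the 14 d arrays were left out. Of 20 proteinase inhibitors 5 were lower and 0 higher, among them *Serpina3n* (-1.18, adjusted p = 0.216) and *Timp1* (-0.23, adjusted p = 0.553). Of 23 ADAM and ADAMTS proteinases 1 was higher and 2 were lower. *Adamts4*, an aggrecanase, differed by 0.54 (adjusted p = 0.284) on its brightest probe set and by -0.34 on the other.

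**Figure D5:**
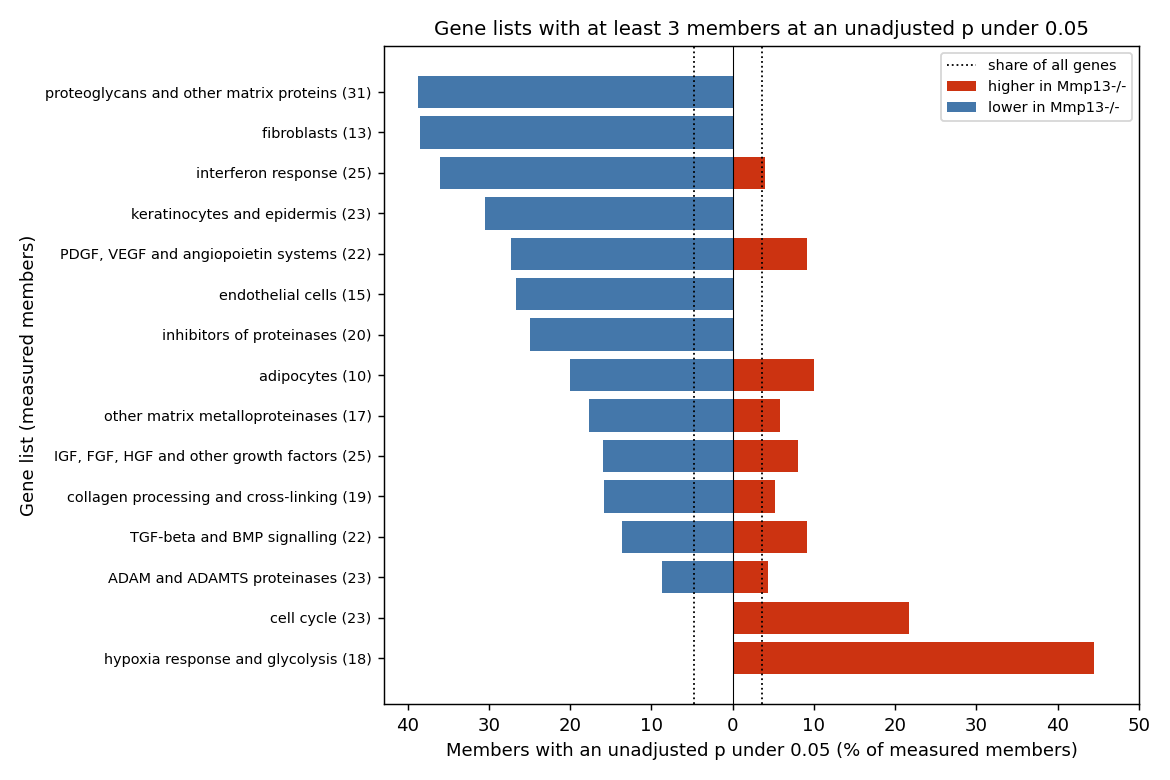
Share of the measured members of each gene list (y axis, number of measured members in brackets) with an unadjusted p under 0.05 in limma (x axis, percent), higher in Mmp13-/- to the right in red and lower to the left in blue, for the 15 lists with at least 3 such members, with dotted lines at the 3.57% higher and 4.73% lower of all genes. Proteoglycans and other matrix proteins have 12 of 31 members lower and hypoxia response and glycolysis 8 of 18 higher.

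Of 25 interferon response genes, 9 were lower and 1 was higher at the threshold, and 22 had a negative difference. *Usp18*, which removes ISG15 from proteins, differed by -0.46 (adjusted p = 0.342), *Oasl1* by -0.44 (adjusted p = 0.358) and *Oas1a*, a sensor of double-stranded RNA, by -0.27 (adjusted p = 0.238), and the higher member was *Ifi202b*. On WT arrays the list mean was 9.24 to 9.46 at 7 d and 8.09 to 8.97 at 14 d. At 21 d it was 7.32 to 7.51. On Mmp13-/- arrays it was 9.13 to 9.65, 8.18 to 8.83 and 6.74 to 7.78, so that the genotypes overlapped at every day. The medians over all days were 8.46 on WT and 8.44 on Mmp13-/- arrays. The change from 7 d to 21 d was larger than the genotype difference. All 7 d arrays were in series 1 and all 21 d arrays in series 2, so day and series cannot be told apart in this change. On the arrays of series 1 alone 19 members were lower at the threshold, and on those of series 2 alone 0. The share of all genes at the threshold was not counted for either series alone. The series also differ in days and in number of arrays, so these counts cannot be compared. Of 33 chemokines and cytokines 2 were lower and 0 higher, and *Il6* differed by -0.52 (adjusted p = 0.701).

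Of 18 genes of the hypoxia response and glycolysis, 8 were higher and 0 lower at the threshold, 17 had a positive difference and the median was 0.161. *Hk2*, which encodes hexokinase 2, differed by 0.26 (adjusted p = 0.416), *Slc2a1*, the glucose transporter GLUT1, by 0.31 (adjusted p = 0.503), *Ndrg1* by 0.28 (adjusted p = 0.484) and *Car12*, a carbonic anhydrase, by 0.60 (adjusted p = 0.486). The mean over the list ran from 9 to 9.73 (median 9.42) on WT and from 9.22 to 9.98 (median 9.68) on Mmp13-/- arrays. The members at the threshold numbered 3 in series 1 alone and 4 in series 2 alone, without a count of all genes beside them. Of 23 cell cycle genes 5 were higher and 0 lower, and 19 had a positive difference, among them *Top2a*, a topoisomerase of dividing cells (0.24, adjusted p = 0.451), and *Mki67*, the gene of the proliferation marker Ki-67 (0.26, adjusted p = 0.57).

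Of 22 genes of the PDGF, VEGF and angiopoietin systems 2 were higher and 6 lower, including *Flt1*, the gene of VEGF receptor 1 (0.35, adjusted p = 0.216). Of 15 endothelial markers 4 were lower and 0 higher. Of 25 other growth factor genes 2 were higher and 4 lower, with *Ptn*, pleiotrophin, at -0.88 (adjusted p = 0.216), *Hbegf* at 0.31 (adjusted p = 0.382) and *Igfbp6*, which binds insulin-like growth factors, at -0.38 (adjusted p = 0.519). Of 22 genes of TGF-beta and BMP signalling 2 were higher and 3 lower, including the receptor gene *Tgfbr2* (-0.29, adjusted p = 0.282).

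Marker lists of leukocytes showed few members at the threshold. Of 14 macrophage markers 1 was higher, the scavenger receptor gene *Marco* (0.91, adjusted p = 0.271), of 9 dendritic cell markers *Itgax*, the gene of CD11c, was higher (0.51, adjusted p = 0.145) and the chemokine receptor gene *Ccr7* lower (-0.53, adjusted p = 0.282), and of 9 neutrophil markers 1 was lower. Of 13 T and NK cell markers, 8 of B and plasma cells, 10 of mast cells, 8 of pericytes and 6 of lymphatic endothelium, 0 passed. Of 23 keratinocyte and epidermis markers 7 were lower, such as *Sbsn* (-0.48, adjusted p = 0.28), *Dmkn* (-0.81, adjusted p = 0.406) and *Krt10* (-0.55, adjusted p = 0.578), 21 had a negative difference and the median was -0.274. *Krt10* read 8.09 and 6.92 on WT replicates 1 and 3 of 14 d, above 5.15 to 6.01 on the other arrays. Of 10 adipocyte markers 1 was higher and 2 were lower, of 8 erythroid markers 2 were lower, and of 11 nerve markers 1 was higher.

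Of the remaining pathway lists, inflammatory and apoptotic caspases and inflammasome genes had 2 of 16 members lower, which were *Casp4* and *Casp12*. Inhibitors of apoptosis and genes of the Hippo pathway had 1 of 22 higher and 1 lower, immunoglobulin-type adhesion molecules 1 of 19 higher (*Cadm1*) and 1 lower, NKG2D ligands and receptor 1 of 4 higher, and neuropeptides and granins 1 of 15 higher, which was *Npy*.

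A change of the genotype difference with day was not found for any probe set at an adjusted p under 0.05 (0 of 45037 by the limma F-test, 0%), and 2328 (5.17%) had an unadjusted p under 0.05. The smallest adjusted p was 0.585, and the 8 probe sets with the smallest unadjusted p, which all had it, were 1 each of *Dsc1*, *Smoc2*, *Wdr78*, *Cdk5*, *Efnb2*, *B230217C12Rik* and *Cpxm1* and the unnamed 1420565_at. Without WT 7 d replicate 1 the test called 3 probe sets and without WT 7 d replicate 2 it called 1.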

How the data were processed

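Granulation tissue RNA of 22 mice was measured on Affymetrix mouse genome arrays. The authors normalized the arrays with RMA and deposited log2 values for 45101 probe sets. The sources used here do not give the RMA version or say if all arrays were normalized together. Labelling started from 2 µg of RNA in series 1 and 250 ng in series 2.

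No signal filter was used, and 64 control probe sets were dropped. A linear model with 1 genotype term and 4 block terms was fitted with lmFit and eBayes of limma 3.58.1 in R 4.3.3 (17 residual and 4.65 prior degrees of freedom), with Benjamini-Hochberg adjustment over all 45037 probe sets and a threshold of 0.05. Single probe sets were also tested by a two-sided exact permutation within blocks. The interaction of genotype with day was tested by an F-test. The steps were tested on simulated data.

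Of the tested probe sets, 34945 had 1 gene in the platform annotation, 932 several and 9160 none. A gene was read by its brightest probe set, and gene order came from a RefSeq table of GRCm38.p6. Promoters were found for 9 of the 13 called genes. Named are the called genes, the neighbours of *Mmp13* within 10 genes, the 8 probe sets with the smallest interaction p, up to 4 genes per list and a few genes of the study. The members and lists were chosen with earlier results of these data known. Alternatives were other block terms, weights, scalings, filters and variances, each series alone, and fits without a day, an array or the 3 outlying arrays. Depth has no meaning on arrays, and the number of arrays limits the precision.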

Additional observations from a re-analysis of the deposited data

Results flagged for a closer look

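In groups of 4 arrays, 268 groups of 67 probe sets were checked for a lowest or highest array standing apart from the others, and 19 did, where chance gives about 1 in 20. Among called probe sets, the array apart was Mmp13-/- 14 d replicate 2 for *Nnmt* (6.80, next 7.39), WT 21 d replicate 4 for *Sulf2* (7.53, next 8.12) and *Ubash3b* (7.43, next 7.28), and WT 21 d replicate 3 for 1457769_at (5.14, next 2.76).

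Among other genes, matrix and vessel genes with 1 array apart were *Aspn* at 8.34 and *Mmp2* at 9.25, both on Mmp13-/- 14 d replicate 4, *Ogn* at 8.24 on WT 14 d replicate 2, *Flt1* at 7.15 on WT 14 d replicate 1, and *Mmp12* at 12.74 on WT 21 d replicate 3 and at 12.87 on Mmp13-/- 21 d replicate 1. For genes on the chromosome of *Mmp13* they were *Casp12* at 6.97 on WT 14 d replicate 2, *Atm* at 3.64 on Mmp13-/- 21 d replicate 4, *Nxpe4* at 5.67 on WT 21 d replicate 3, and *Dixdc1* at 4.91 and *Calml4* at 5.21, both on Mmp13-/- 21 d replicate 2. The rest were *Itgax* at 10.84 on WT 21 d replicate 2, *Dmkn* at 6.07 on Mmp13-/- 21 d replicate 1, *Hal* at 5.35 on Mmp13-/- 21 d replicate 4 and *Top2a* at 7.34 on WT 21 d replicate 2. The cause of these values was not tested.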

How the results depend on the processing

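The 20 called probe sets numbered 16 to 23 with day blocks, median centring, quantile normalization, a filter at the median level or other variances, 31 with equal weight for each day (27 of them of 1 sign at all days), 30 in series 1 alone, 13 in series 2 alone, and 5, 15 and 21 without 7 d, 14 d and 21 d. Leaving out 1 array at a time gave 17 to 27, both for all called probe sets and for those of 1 sign at all days. Without the 3 outlying arrays, chosen after the data had been seen, 9 were called, all of 1 sign. The count of 12635 probe sets of 1 sign was 6881 with the filter and 11595 to 13089 without 1 array. With the replicate number as a block, 2 probe sets were called, *Mmp13* and *Casp4*. Correlation of same-numbered arrays did not settle whether the numbers pair the mice. Of 11 such pairs 6 correlated above 0.1 (range -0.161 to 0.609), and 2 of 11 arrays correlated best with their own number. The highest value, 0.609, came from the 14 d pair of series 2. The other 14 d arrays were in series 1, so series and pairing cannot be told apart at 14 d. The called probe sets other than that of *Mmp13* kept their sign under every alternative and without any 1 array. Counting each probe set in each fit, 137 of 245 calls were kept and 108 lost under the alternatives, and 381 of 418 were kept and 37 lost without 1 array. *Mmp13* stayed between -3.34 and -2.86 under the alternatives and between -3.15 and -2.95 without 1 array, called each time.

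The 6 called genes on the chromosome of *Mmp13* were 2 with the replicate block, 10 with equal day weights, 2 without 7 d, 11 without 14 d, 3 without the 3 outlying arrays, and 5 to 11 without 1 array, with 11 when WT 14 d replicate 1 was left out. The interaction test gave 1 probe set without the 3 outlying arrays and 0 to 3 without 1 array. The 8 genes at an unadjusted p under 0.05 within 50 genes of *Mmp13* were 5 without 14 d and 6 to 10 without 1 array. Lower matrix genes (12) were 4 without 14 d and 11 to 15 without 1 array. Lower interferon genes (9) were 19 in series 1, 0 in series 2, 5 without 7 d, 5 without 14 d and 7 to 13 without 1 array. Higher hypoxia genes (8) were 3 in series 1, 4 in series 2, 3 without 21 d and 7 to 9 without 1 array. The share of all genes at the threshold was not counted in these alternative fits, and the cause of these changes was not tested. These counts of lists and of the chromosome under alternatives were added after the data had been seen.

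The direction turned on another probe set for *Lpcat2* (-0.48), *Ubash3b* (-0.16 and -0.04), *Vcan* (0.09 and 0.06), *Dcn* (0.14), *Car12* (-0.12), *Ptn* (0.08), *Adamts4* (-0.34), *Atm* (0.06), *Pclaf* (0.12 and 0.25) and *Dixdc1* (-0.03 and -0.14), and without the 14 d arrays for *Mmp3* (0.08). The limits are 3 or 4 mice per group, the single pair of arrays that joins the series at 14 d, and 129 DNA linked to the targeted allele.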
